A study of Mus musculus with 12 samples.

Results

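MHC class II antigen presentation was described in epididymal white adipose tissue (eWAT) through 10 genes chosen by name: the surface chains H2-Aa, H2-Ab1 and H2-Eb1, the invariant chain Cd74, the protease Ctss, the peptide editor H2-DMa and H2-DMb1, its inhibitor H2-Oa and H2-Ob, and the transactivator Ciita. All 10 were found among the 49315 genes of the count table, and all 10 were among the 18702 genes tested. RNA was sequenced from 12 mice fed a high-fat diet (HFD, 60% fat) for 12 weeks, with 3 mice and 3 libraries in each of 4 groups. KO mice carried a systemic deletion of the Mir181a2b2 locus (Mir181a2b2-/-), and their age-matched littermate controls were Mir181a2b2 flox/flox (flox). Flox and KO mice received a weekly intraperitoneal injection of vehicle or of methotrexate (MTX, 1 mg/kg), an antifolate drug, which gave the groups flox vehicle, KO vehicle, flox MTX and KO MTX. The methods describe male mice and state no age for this experiment. Because the deletion was systemic, every cell type of the fat pad lacked the locus in KO mice.

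MHC class II molecules carry peptides from the endocytic pathway to the cell surface, where CD4 T cells read them. Cd74 occupies the groove of new class II dimers until endosomal proteases, among them cathepsin S, trim it to the CLIP fragment, which H2-DM then exchanges for peptide, while H2-O restrains H2-DM, mainly in B cells. Ciita has no DNA binding of its own and is recruited to class II promoters by the factors RFX, CREB and NF-Y. In fat, macrophages, dendritic cells and B cells carry class II, and in bulk tissue a change in the number of such cells and a change in RNA per cell cannot be told apart.

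Of the 10 genes, 7 lie on chromosome 17 within 224 kb of GRCm38, from the start of H2-Oa (34092340) to the end of H2-Eb1 (34316674). Ciita lies on chromosome 16 (10480059 to 10528418) and Ctss on chromosome 3 (95526786 to 95556403). RefSeq (GRCm38.p6) gave a promoter window of 250 bases before and 50 after the start site for 7 of the 10 genes, and none was used for H2-Ab1, Cd74 or Ciita. The stretches are shown because H2-Aa, H2-Eb1, H2-DMb1 and both H2-O genes carry TGATTGG while differing in level and in pattern over the libraries. They were searched on both strands for TGATTGG, the Y box bound by NF-Y, and for AACNNATG, a short form of the X box bound by RFX. Capitals mark these letters, and in Ctss they mark GAAANNGAA, a spaced repeat of the kind that interferon regulatory factors bind.
H2-Aa: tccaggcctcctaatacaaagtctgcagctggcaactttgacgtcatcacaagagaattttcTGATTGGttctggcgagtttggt
H2-Eb1: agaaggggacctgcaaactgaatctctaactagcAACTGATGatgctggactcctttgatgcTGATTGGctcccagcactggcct
H2-DMb1: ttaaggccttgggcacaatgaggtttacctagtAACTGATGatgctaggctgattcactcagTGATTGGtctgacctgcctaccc
H2-DMb2: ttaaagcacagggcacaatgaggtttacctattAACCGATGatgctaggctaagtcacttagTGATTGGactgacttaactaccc
H2-Oa: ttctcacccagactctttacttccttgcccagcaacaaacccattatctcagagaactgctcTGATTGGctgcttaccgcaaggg
H2-Ob: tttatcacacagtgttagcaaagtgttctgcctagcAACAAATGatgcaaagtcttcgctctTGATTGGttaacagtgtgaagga
Ctss: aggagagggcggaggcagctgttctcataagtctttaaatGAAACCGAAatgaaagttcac
The H2-Aa stretch is chr17:34287851-34287935 on the minus strand. The others are on the plus strand: H2-Eb1 at chr17:34305744-34305828, H2-DMb1 at chr17:34153066-34153150, its near-copy H2-DMb2 at chr17:34145095-34145179, H2-Oa at chr17:34092272-34092356, H2-Ob at chr17:34238784-34238868 and Ctss at chr3:95526725-95526785.

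TGATTGG was present in the windows of 5 of these 7 genes (H2-Aa, H2-Eb1, H2-DMb1, H2-Oa and H2-Ob) and in 7.82% of all 32851 promoter windows. AACNNATG followed by TGATTGG on the same strand, with at most 40 bases between their first letters, was found in 3 of them (H2-Eb1, H2-DMb1 and H2-Ob) and in 20 windows in all, which is 0.0609%. In those 3 the first letters were 28, 29 and 26 bases apart. The 85 bases shown for H2-DMb1 and H2-DMb2 were identical at 72 positions. TGATTGG was not found in either window of H2-DMa or in that of Ctss, and GAAANNGAA was found in Ctss, in no other window of these genes and in 8.56% of all windows.

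Depth ranged from 19495310 to 23976469 counts per library, and 3 counts, the limit that a count of 0 allows, corresponded to 0.125 to 0.154 CPM, the counts scaled to a common library total. Mir181a-2 and Mir181b-2, the precursors at the deleted locus, were at 0 counts throughout, apart from flox MTX replicate 4 with 2 counts of Mir181a-2, so these libraries do not check the genotype labels. None of the 8 adipocyte markers was at 0 in any library. All 3 flox vehicle libraries also held epididymal transcripts, with a summed level of 1551 to 12422 CPM for 12 genes against 24.6 to 528 CPM in the other 9 libraries. Transcripts of 8 germ cell genes summed to 152 to 516 CPM in flox vehicle and to 0.217 to 9.22 CPM elsewhere. Within flox vehicle, replicates 3 and 1 held most epididymal RNA (12422 and 4577 CPM). The surface chains, Cd74, Ctss, H2-DMa, H2-DMb1 and Ciita were lower in these libraries than in replicate 4. H2-Oa and H2-Ob were instead highest of the group in replicate 1. This epididymal content cannot be told apart from the flox vehicle group.

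Levels are given as CPM scaled by TMM, a normalization that makes most genes level between libraries. Per kilobase of exon, Cd74 was the most abundant of the 10 genes, with a median of 756 CPM per kb over the 12 libraries, followed by Ctss (462), H2-Eb1 (290), H2-Ab1 (197) and H2-Aa (167). H2-DMb1 (62.6) and H2-DMa (13.2) were lower, and Ciita (1.90), H2-Oa (0.942) and H2-Ob (0.779) were the lowest on this scale. The 3 surface chains and Cd74 together took 0.0815% to 0.540% of all counts in a library. The span between the lowest and the highest library was 4.70-fold for H2-DMa, 5.87- to 7.11-fold for the surface chains, Cd74 and Ciita, 9.35-fold for H2-DMb1, 18.4-fold for H2-Oa, 20.98-fold for Ctss and 23.3-fold for H2-Ob. Flox vehicle replicate 3 was the lowest library for 8 of the 10 genes and flox vehicle replicate 1 for H2-DMa and H2-DMb1.

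**Figure D1:**
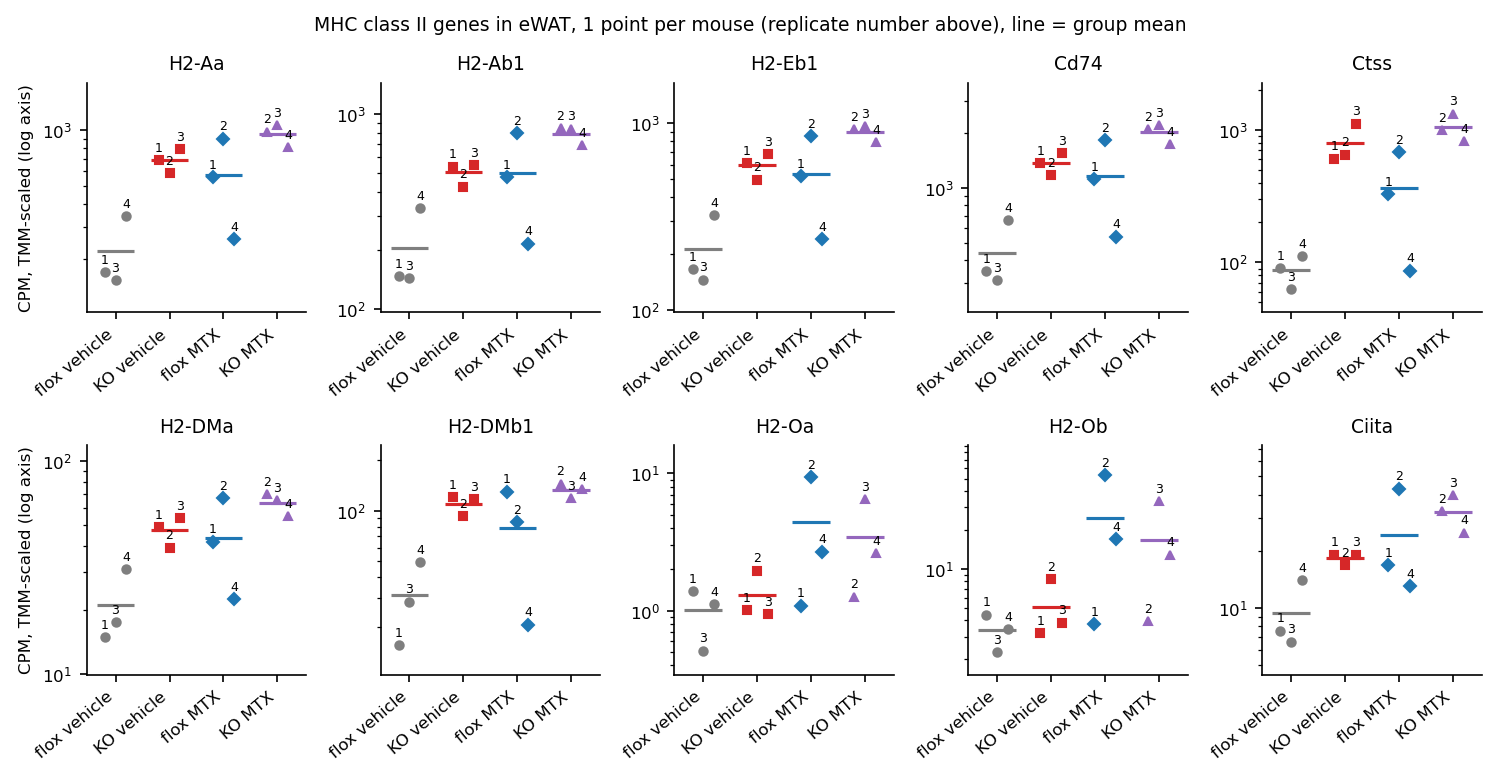
TMM-scaled CPM (log axis) of the 10 class II genes in each of the 12 mice, by group, with the replicate number above each point and the group mean as a line. The surface chains, Cd74 and Ctss were higher in all 3 KO vehicle mice than in all 3 flox vehicle mice, flox MTX replicate 4 lay far below the other flox MTX mice for these genes, and H2-Oa and H2-Ob were highest in flox MTX replicate 2 and KO MTX replicate 3.

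The first comparison set KO vehicle against flox vehicle. Genotype cannot be told apart here from the epididymal and germ cell RNA that flox vehicle held. H2-Aa, the alpha chain of I-A, had 170, 154 and 343 CPM in the flox vehicle mice (replicates 1, 3 and 4) and 688, 583 and 787 CPM in the KO vehicle mice (replicates 1, 2 and 3). The groups did not overlap. H2-Aa was 3.09-fold higher in KO vehicle (log2 fold change 1.63, SE 0.42, edgeR adjusted p = 0.0149). Its partner H2-Ab1, the beta chain of I-A, was at 147, 144 and 329 CPM in flox vehicle and at 536, 423 and 544 CPM in KO vehicle, 2.43-fold higher (log2 fold change 1.28, SE 0.43, edgeR adjusted p = 0.0464). H2-Eb1, the beta chain of I-E, rose 2.83-fold, from a mean of 210 ± 96.4 to 596 ± 92.1 CPM (SD, n = 3; edgeR adjusted p = 0.0202).

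Cd74, the invariant chain, had 347, 310 and 661 CPM in the flox vehicle mice and 1364, 1174 and 1543 CPM in the KO vehicle mice, in the same order. It was 3.10-fold higher in KO vehicle without overlap (log2 fold change 1.63, SE 0.41, edgeR adjusted p = 0.0134). Ctss, the protease that trims Cd74, was at 90.3, 63.0 and 111 CPM in flox vehicle and at 605, 650 and 1108 CPM in KO vehicle. The groups were far apart, and its fold change, the largest of the 10 genes, was 8.95 (log2 3.16, SE 0.60, edgeR adjusted p = 0.0045). Both chains of the peptide editor rose, H2-DMa 2.24-fold (21.1 ± 8.67 to 47.3 ± 7.48 CPM, edgeR adjusted p = 0.0328) and H2-DMb1 3.55-fold (31.1 ± 17.02 to 110 ± 14.99 CPM, edgeR adjusted p = 0.0281).

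The other 3 genes did not pass the test. Ciita was at 7.59, 6.65 and 14.0 CPM in flox vehicle and at 19.2, 16.9 and 19.2 CPM in KO vehicle, without overlap, with a log2 difference of 0.97 (SE 0.42, edgeR adjusted p = 0.105). It lay near the limit and was called higher in 8 of 20 alternative settings. DESeq2 was among them (log2 fold change 0.95, DESeq2 adjusted p = 0.0778). H2-Oa, the alpha chain of H2-O, was at 1.39, 0.511 and 1.11 CPM in flox vehicle and at 1.01, 1.95 and 0.937 CPM in KO vehicle. H2-Ob, its beta chain, was at 4.43, 2.28 and 3.42 CPM in flox vehicle and at 3.17, 8.30 and 3.84 CPM in KO vehicle. The groups overlapped for both H2-O genes, with log2 differences of 0.38 (SE 0.80) and 0.60 (SE 0.89).

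In all, 7 of the 10 genes were called higher in KO vehicle (edgeR adjusted p below 0.1 and a change of 1.5-fold or more), against 13.9% of all tested genes called higher in this comparison. The median log2 fold change was 1.39 over the 10 genes and -0.06 over all genes. The count was 5 to 8 with any single library left out, against 4640 to 6828 of all genes called in either direction. Macrophage markers moved with it: all 12 were called higher, with a median of 2.74, and their summed level was 712 to 1347 CPM in flox vehicle and 5278 to 9315 CPM in KO vehicle, none of them at 0 counts in any library. Their part in the class II difference was not tested, nor was that of the epididymal and germ cell RNA of flox vehicle.

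**Figure D2:**
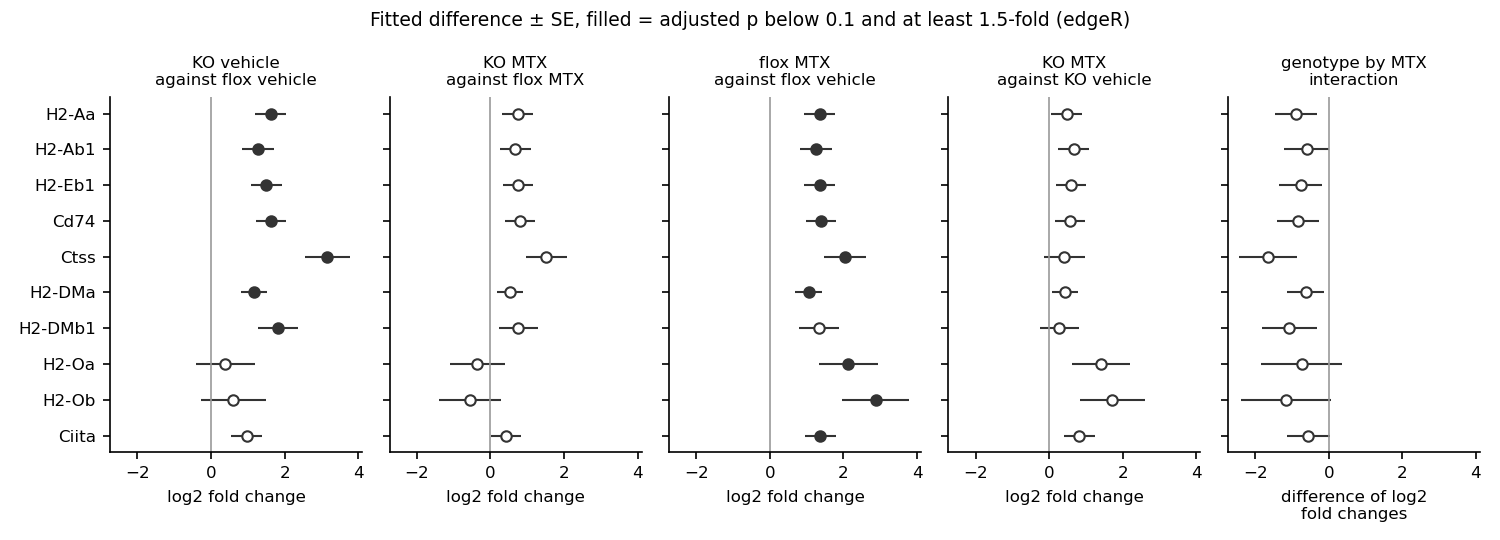
Fitted log2 fold change (x axis) of each class II gene in the 4 comparisons, and the difference of log2 fold changes for the interaction, with the SE as a bar. Filled points passed the call: 7 in KO against flox under vehicle, 9 in MTX against vehicle in flox mice, and 0 in each of the other 3 panels.

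The second comparison set flox MTX against flox vehicle. MTX likewise cannot be told apart here from the epididymal and germ cell RNA of flox vehicle. Cd74 was at 1109, 1825 and 537 CPM in flox MTX replicates 1, 2 and 4, a range from below the highest flox vehicle mouse (661 CPM) to more than any of them. It was 2.63-fold higher in the fit (log2 fold change 1.40, SE 0.41, edgeR adjusted p = 0.0372). H2-Aa (2.57-fold), H2-Eb1 (2.55-fold) and H2-Ab1 (2.40-fold) had the same arrangement, each with flox MTX replicate 4 below flox vehicle replicate 4. Ctss was at 328, 678 and 86.7 CPM in flox MTX, 4.14-fold above flox vehicle (edgeR adjusted p = 0.0321), and replicate 4 lay inside the flox vehicle range of 63.0 to 111 CPM.

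H2-Oa and H2-Ob had their highest library in this group. H2-Ob was at 3.73, 53.3 and 17.1 CPM in flox MTX replicates 1, 2 and 4, and H2-Oa at 1.09, 9.41 and 2.69 CPM. Replicate 1 thus stayed at the flox vehicle level for both, replicate 2 was the highest of all 12 libraries, and replicate 4, the lowest for most class II genes, was above every vehicle mouse. Their fold changes were 7.32 for H2-Ob (log2 2.87, SE 0.92, edgeR adjusted p = 0.0510) and 4.39 for H2-Oa (log2 2.13, SE 0.80, edgeR adjusted p = 0.0856). Ciita was at 16.96, 43.0 and 13.1 CPM and rose 2.59-fold (edgeR adjusted p = 0.0432), and H2-DMa rose 2.07-fold (edgeR adjusted p = 0.0638). H2-DMb1, at 130, 85.0 and 20.7 CPM, did not pass (log2 difference 1.34, SE 0.54, edgeR adjusted p = 0.105).

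The call was made for 9 of the 10 genes, against 8.09% of all tested genes called higher, and the median log2 fold change was 1.37 over the 10 genes and 0.05 over all genes. All 10 genes overlapped between the groups. No gene was called without flox vehicle replicate 3, 2 were called without flox vehicle replicate 1 (H2-Ob and Ctss), 1 was called without flox MTX replicate 2 (Ctss), and 0 were called in a fit of the 6 libraries alone. Macrophage markers summed to 3515, 6087 and 1164 CPM in flox MTX replicates 1, 2 and 4, the order of Cd74 being replicate 2, replicate 1 and replicate 4 as well, and 11 of the 12 were called higher. The summed B cell markers reached 31.0, 431 and 165 CPM in these 3 mice, against 18.4 to 48.9 CPM in flox vehicle, and 6 of the 10 were called higher. The part of either in these differences was not tested.

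Between KO MTX and flox MTX, 0 of the 10 genes and 0% of all tested genes were called with edgeR, while 4576 genes and 1 of the 10 (Ctss) had an unadjusted p below 0.05, and DESeq2 called 2740 genes and 1 of the 10 (Ctss). Ctss was at 992, 1322 and 824 CPM in KO MTX replicates 2, 3 and 4, all above the highest flox MTX mouse at 678 CPM. It was the one gene of the 10 without overlap here, with a log2 difference of 1.52 (SE 0.57, edgeR adjusted p = 0.145). The share of all tested genes without overlap was not counted. Cd74 was at 2092, 2204 and 1729 CPM in KO MTX against 537 to 1825 CPM in flox MTX, with a log2 difference of 0.80 (SE 0.41, edgeR adjusted p = 0.250).

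The estimates of H2-Aa, H2-Ab1, H2-Eb1, H2-DMa, H2-DMb1 and Ciita were also above 0, from 0.42 to 0.76 on the log2 scale. Those of H2-Oa (-0.35) and H2-Ob (-0.55) were below 0. The median was 0.71 over the 10 genes and -0.05 over all genes. Flox MTX replicate 2 was the highest mouse of its group for all of the 10 genes but H2-DMb1, so leaving it out raised their differences by construction. Without it, 7 of the 10 genes were called higher in KO MTX, namely H2-Aa, H2-Ab1, H2-Eb1, H2-DMa, Cd74, Ciita and Ctss. Their log2 differences were 0.98 (H2-DMa) to 2.33 (Ctss), and 4064 of all genes were called in either direction in that fit. The share of all tested genes called higher in it was not counted, so the 7 have no background in their own direction. The estimates of H2-Oa and H2-Ob turned to 0.88 and 0.70. With any other single library left out, none of the 10 was called. All 12 macrophage markers had estimates above 0 in this comparison, with a median of 1.22 and none called.

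Between KO MTX and KO vehicle, 0 of the 10 genes and 0% of all tested genes were called with edgeR. An unadjusted p below 0.05 was found for 1491 genes and for 0 of the 10, and DESeq2 called 276 genes and 0 of the 10. All 10 estimates were above 0, with a median of 0.58 against -0.01 over all genes. In 6 genes (H2-Aa, H2-Ab1, H2-Eb1, H2-DMa, Cd74 and Ciita) every KO MTX mouse was above every KO vehicle mouse. The share of all tested genes arranged in this way was not counted, so the 6 have no background to be read against. Ciita, at 32.8, 39.7 and 25.1 CPM in KO MTX, had a log2 difference of 0.82 (SE 0.41, edgeR adjusted p = 0.663), and Cd74 of 0.56 (SE 0.40, edgeR adjusted p = 0.788). H2-Ob was at 3.96, 33.6 and 12.9 CPM and H2-Oa at 1.26, 6.46 and 2.62 CPM in KO MTX replicates 2, 3 and 4, which put replicate 2 inside and replicates 3 and 4 above the KO vehicle range. Their log2 differences were 1.72 (SE 0.88) and 1.40 (SE 0.79).

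The interaction, the MTX difference in KO mice minus that in flox mice, was below 0 for all 10 genes, from -0.55 (Ciita, SE 0.58) to -1.64 (Ctss, SE 0.79, edgeR adjusted p = 0.359). None of the 10 was called, with 0 also at an unadjusted p below 0.05 and by DESeq2, against 0.989% of all tested genes called in either direction. The median was -0.80 over the 10 genes and -0.05 over all genes. So the MTX difference was not shown to differ between the genotypes for any class II gene.

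Ratios between genes of the same library showed which of the 10 kept step. The 3 surface chains and Cd74 did so closely. Cd74 per kilobase stood at 4.36 to 4.83 times H2-Aa in all 12 libraries, a span of 1.11-fold, while H2-Aa varied 6.90-fold and Cd74 7.11-fold between libraries. H2-Eb1 was 1.29 to 1.65 times H2-Ab1, a span of 1.28-fold. H2-Aa was 0.868, 0.931 and 0.978 times H2-Ab1 in the KO vehicle mice and 0.705 to 0.855 times in the other 9 libraries, so the KO vehicle mice had the highest share of H2-Aa. No test was made of that difference, which was noticed in the values.

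Ctss did not keep step with Cd74. Its ratio to Cd74 per kilobase was 0.322, 0.251 and 0.208 in flox vehicle and 0.549, 0.685 and 0.888 in KO vehicle, a 2.71-fold difference. Under MTX it was 0.366, 0.460 and 0.200 in flox mice and 0.587, 0.742 and 0.589 in KO mice, a 1.97-fold difference. In both treatments every KO mouse was above every flox mouse, and each difference reached p = 0.1 in an exact two-sided permutation test, the smallest value that 3 against 3 can give (0.2 after adjustment over the 4 comparisons). The ratio of MTX to vehicle mice was 1.26 in flox mice and 0.916 in KO mice, with overlap (exact permutation p = 0.5 and 0.7). Against the macrophage markers Ctss spanned 1.63-fold over the 12 libraries, at 0.0745 to 0.121 of their sum. This share was 0.0823 to 0.0916 in flox vehicle and 0.114 to 0.119 in KO vehicle, 1.32-fold higher in KO mice, and 0.0745 to 0.111 in flox MTX against 0.118 to 0.121 in KO MTX, 1.30-fold higher. Every KO mouse was above every flox mouse (exact two-sided permutation p = 0.1 for each, 0.2 after adjustment over 4).

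Cd74 per unit of macrophage marker RNA was lower in every KO mouse than in every flox mouse of the same treatment. Its ratio to the summed 12 markers was 0.352, 0.436 and 0.490 in flox vehicle and 0.258, 0.205 and 0.166 in KO vehicle, 2.05-fold lower in KO mice. Under MTX it was 0.316, 0.300 and 0.462 in flox mice and 0.248, 0.202 and 0.253 in KO mice, 1.51-fold lower in KO mice. Neither pair of groups overlapped (exact two-sided permutation p = 0.1 for each, 0.2 after adjustment over 4). This ratio, that of Ctss to Cd74 and that of Ctss to the markers were added after the values had been seen. In KO vehicle against flox vehicle the 12 markers had log2 fold changes of 0.66 to 3.80, with Cd74 at 1.63. Ratios to their sum thus depend on which markers are summed.

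**Figure D3:**
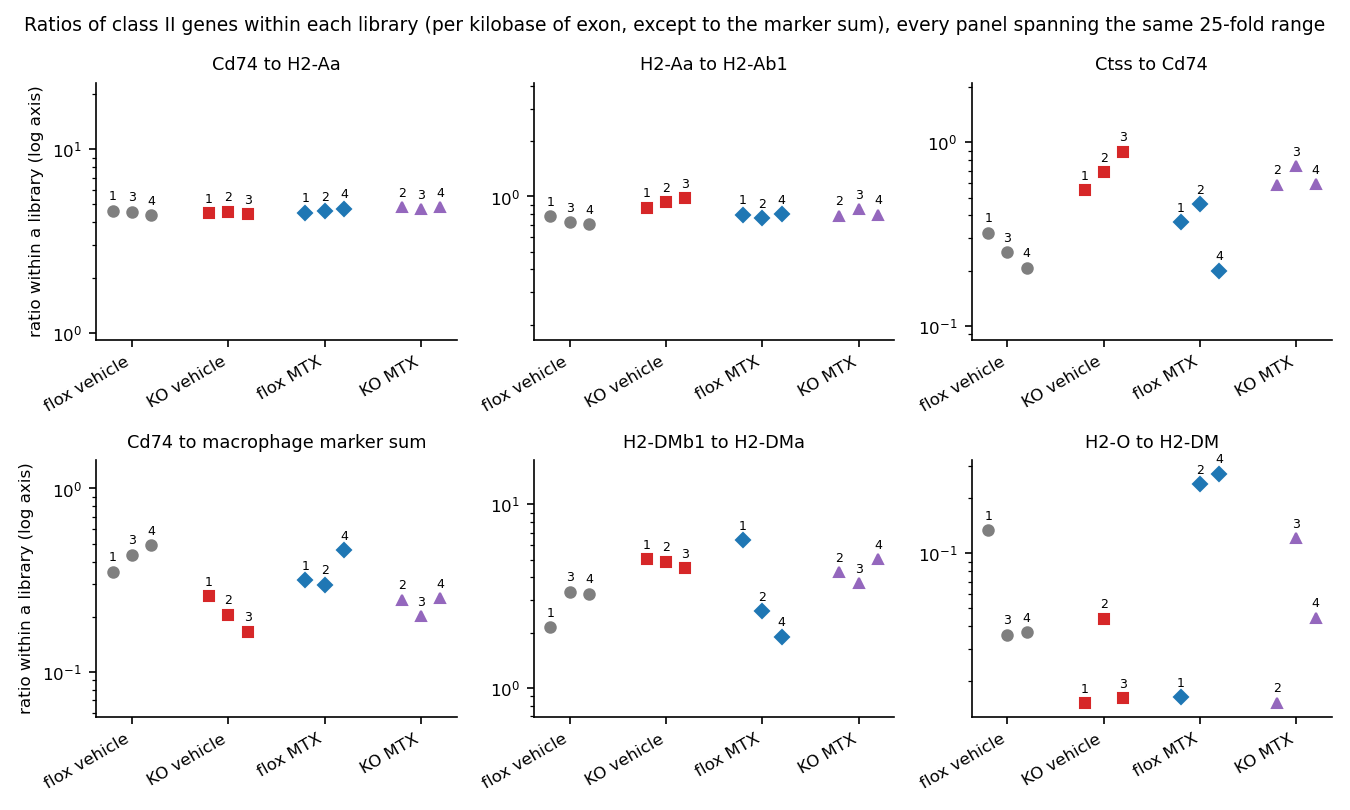
Ratios within each library (log axis, same span in every panel), by group, with the replicate number above each point. Values are per kilobase of exon, except for Cd74 over the marker sum, which is in CPM. Cd74 to H2-Aa was nearly level at 4.36 to 4.83, Ctss to Cd74 was higher and Cd74 to macrophage markers lower in KO than in flox mice under either treatment, and H2-O to H2-DM spread from 0.0152 to 0.270 within and between groups.

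H2-O stood apart from the rest of the pathway. The ratio of H2-O to H2-DM (H2-Oa plus H2-Ob over H2-DMa plus H2-DMb1, per kilobase) was 0.134, 0.0359 and 0.0372 in flox vehicle replicates 1, 3 and 4 and 0.0152, 0.0439 and 0.0162 in KO vehicle replicates 1, 2 and 3. It was 0.0164, 0.237 and 0.270 in flox MTX replicates 1, 2 and 4 and 0.0153, 0.120 and 0.0445 in KO MTX replicates 2, 3 and 4. The highest ratios were thus in flox MTX replicates 2 and 4, while the third mouse of that group was near the lowest. All 4 comparisons overlapped, with exact two-sided permutation p from 0.3 to 0.8 (adjusted 0.667 to 0.800).

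H2-Ob moved with the B cell markers. Over the 12 libraries H2-Ob was 0.0886 to 0.124 of the summed CPM of 10 B cell genes, a span of 1.40-fold, although H2-Ob itself varied 23.3-fold. The summed B cell genes were at 431 CPM in flox MTX replicate 2, 367 in KO MTX replicate 3, 165 in flox MTX replicate 4 and 115 in KO MTX replicate 4, the 4 libraries in which H2-Ob was highest, and at 18.4 to 74.0 CPM elsewhere. With flox MTX replicate 2 and KO MTX replicate 3 left out, a choice made after the values were seen, the MTX difference of H2-Ob in flox mice was 1.63 (edgeR adjusted p = 0.125) and that of H2-Oa 0.91 (edgeR adjusted p = 0.290). These libraries held the highest H2-Ob and H2-Oa levels, so smaller differences followed from the choice and say nothing on B cells. The libraries share depth and tissue, so this is a description, and the part of B cells in the H2-O values was not tested.

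**Figure D4:**
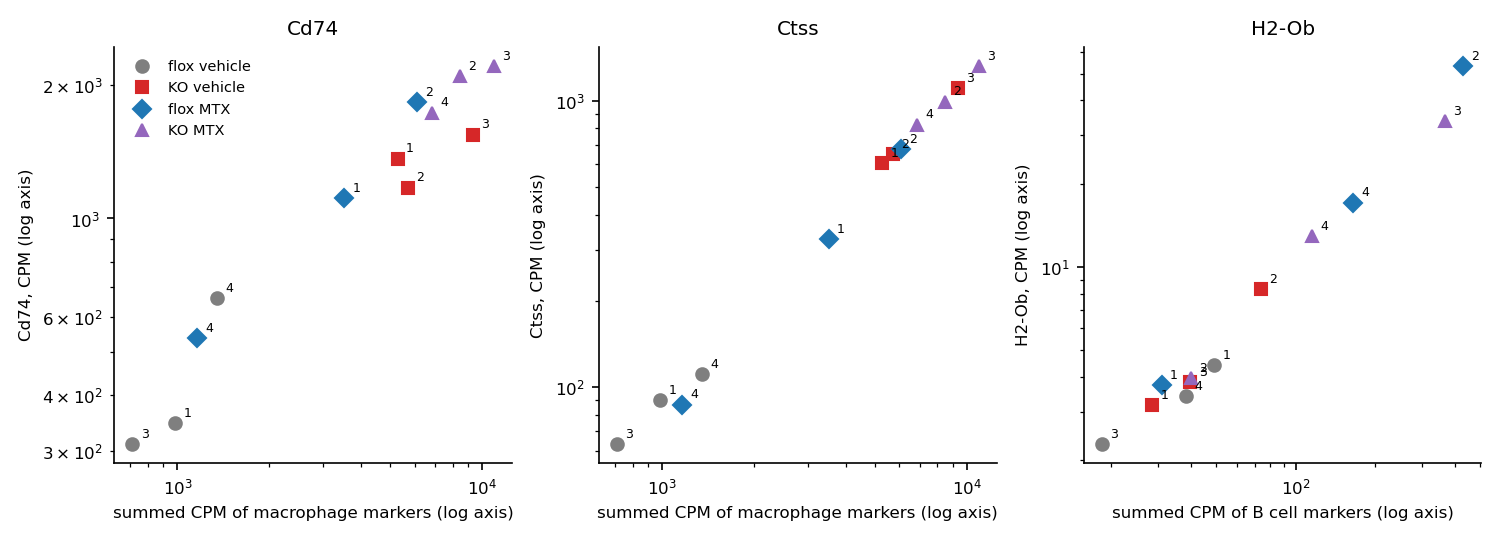
Cd74 and Ctss against the summed CPM of 12 macrophage markers, and H2-Ob against that of 10 B cell markers (all axes log), 1 point per mouse with its replicate number. H2-Ob was at 0.0886 to 0.124 of its markers with overlapping genotypes, whereas the KO mice lay at a lower share for Cd74 (0.166 to 0.258) and at a higher share for Ctss (0.114 to 0.121) than the flox mice (0.300 to 0.490 and 0.0745 to 0.111).

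The course of each gene over the 12 libraries was compared by the root mean square (RMS) difference of log2 CPM after each gene was centred on its own mean. The values were not scaled, so the RMS difference depends on the size of the changes as well as on their pattern. H2-Ob was nearest to the mean of the B cell markers (0.17) and far from that of the macrophage markers (1.53), and H2-Oa was nearest to the B cell markers too (0.41 against 1.32). Ctss was nearest to the macrophage markers (0.24). H2-Aa, H2-Ab1, H2-Eb1, Cd74 and Ciita were nearer to the mean of 10 dendritic cell genes (0.29 to 0.32) than to that of the macrophage markers (0.47 to 0.75). H2-DMa was at 0.17 from the dendritic cell genes. H2-DMb1 was about as far from them (0.57) as from the macrophage markers (0.58), and Ciita was at 0.41 from the T cell markers. In KO vehicle against flox vehicle the median log2 fold change was 1.01 for dendritic cell genes and 2.74 for macrophage markers, with Cd74 at 1.63. Whether nearness reflects size or pattern was not tested. The genes most like Cd74 outside the list were Tlr2, Lcp2, St8sia4, Tgfbi and Slc9a9, at RMS differences of 0.16 to 0.18 against a median of 1.04 over all genes. Those most like the mean of the 10 genes were Cytip, Cyp4f18, Arhgdib, Slc9a9 and Stx11, at 0.15 to 0.18.

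H2-DMb1, which encodes the partner chain of H2-DMa, varied against it. Its level per kilobase was 2.15 to 3.34 times that of H2-DMa in flox vehicle and 4.48 to 5.04 times in KO vehicle, and the range over all 12 libraries was 1.90 to 6.38 times. H2-DMb2, whose reads may be shared with H2-DMb1 because the genes are near-copies, was at 32.5 and 32.9 CPM in flox MTX replicate 2 and KO MTX replicate 3 and at 2.79 to 12.5 CPM in the other 10 libraries. H2-Eb2 was at 7.27 and 5.24 CPM in those libraries and at 0.118 to 3.63 CPM in the others. It was called higher in flox MTX against flox vehicle (log2 fold change 3.08, edgeR adjusted p = 0.048), whereas H2-DMb2 was not (1.78, edgeR adjusted p = 0.117). H2-Ea-ps, which encodes the I-E alpha chain in strains that make it, had 6 counts in flox MTX replicate 2, 1 in KO MTX replicate 2 and 0 in the others. RNA for the partner chain of H2-Eb1 was thus nearly absent. Surface chain is used here as a name for the gene, and I-E protein at the cell surface was not measured.

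The factors that act on class II promoters were mostly not called. Of 7 genes for RFX, NF-Y and CREB subunits, 1 was called higher and 1 lower in KO vehicle against flox vehicle, near the share of all tested genes (13.9% higher and 17.8% lower), and 0 were called in the other comparisons, with medians of 0.10 (KO against flox under vehicle) and -0.05 (MTX against vehicle in flox mice). Nfya, the NF-Y subunit that contacts DNA, rose 2.37-fold (edgeR adjusted p = 0.00396) and Nfyb fell by 0.61 on the log2 scale (edgeR adjusted p = 0.0355). Rfx5, Rfxap and Rfxank, the subunits of RFX, had differences of -0.27, 0.35 and 0.10 and did not pass. Of 6 tested genes of the interferon gamma pathway, which induces Ciita, Irf1 (1.69-fold) and Ifngr2 (1.55-fold) rose and Jak2 fell by 0.73 on the log2 scale in KO vehicle. With MTX in flox mice 2 of the 6 were called higher, Ifngr1 (1.62-fold) among them, against 8.09% of all tested genes. Ifng itself had 0 to 8 counts per library and was not tested.

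Neighbouring steps of the pathway were described by the same counts. Of 9 endosomal processing genes, 8 were called higher and 1 lower in KO vehicle against flox vehicle (median 1.47), where 13.9% of all tested genes were called higher and 17.8% lower, with Lgmn, an asparaginyl endopeptidase, at 4.86-fold, March1, the ligase that removes class II from the surface, at 3.95-fold and Ctsz at 3.88-fold, while Ctsf fell by 0.66 on the log2 scale. Of 7 genes for costimulation and CD4 partners, 5 were called higher (median 1.51), among them Cd83 (4.19-fold), Cd40 (3.45-fold) and Cd80 (3.36-fold). For MHC class I presentation 6 of 13 genes were called higher, with a median of 0.53, led by H2-T23 (2.82-fold), Psmb8 (2.27-fold) and H2-Q4 (2.14-fold). The ratio of class I (H2-K1 and H2-D1) to class II (H2-Aa and H2-Ab1) per kilobase ranged from 10.1 in flox vehicle replicate 1 to 2.22 in KO MTX replicate 3. With MTX in flox mice, 5 of 9 endosomal, 4 of 7 costimulation and 7 of 13 class I genes were called higher, against 8.09% of all tested genes, and in KO MTX against flox MTX and against KO vehicle 0 were called in any of these lists.

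Markers of other cells in the tissue were counted in the same way. In KO vehicle against flox vehicle, 6 of 10 dendritic cell genes, 7 of 8 endothelial genes and 6 of 6 fibroblast genes were called higher, against 13.9% of all tested genes. The 2 of 8 T cell genes called higher and the 1 of 8 adipocyte genes called lower were nearer to the shares of all genes (13.9% higher and 17.8% lower), and 0 of 10 B cell genes were called. With MTX in flox mice 5 dendritic cell, 6 T cell and 4 fibroblast genes were called higher, against 8.09% of all tested genes, and 0 endothelial and 0 adipocyte genes were called. Of the epididymis list, 6 of 9 tested genes, and all 8 germ cell genes, were called lower in both comparisons with flox vehicle, in which 17.8% and 16.1% of all tested genes were called lower. Dendritic cell markers summed to 73.6 to 128 CPM in flox vehicle, 377 to 597 in KO vehicle, 90.9 to 359 in flox MTX and 511 to 755 in KO MTX.

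Counting limits the lowest genes most. H2-Oa had 13 to 207 counts per library and H2-Ob 58 to 1172, against 7883 to 50869 for Cd74. H2-DMa overlaps Brd2 and Ciita overlaps Dexi on the opposite strand, and since the strand setting of the counting is not stated, reads of the genes in the shared stretches cannot be told apart.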

How the data were processed

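Whole read counts per gene, not normalized, were deposited by the authors for 12 eWAT libraries. The authors trimmed reads with Trimmomatic 0.36, aligned them to GRCm38 with STAR 2.5.2b and counted them with featureCounts of Subread 1.5.2. The strand setting and the handling of reads with several matches are not given in the sources used here. The labels describe polyA RNA, the methods ribosomal RNA depletion.

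Genes were named and measured by GENCODE M21 (48970 of 49315 with a symbol). With edgeR 4.0.16 in R 4.3.3, TMM factors, filterByExpr by group, a model of 4 group means over 12 libraries and the quasi-likelihood F-test were used, with Benjamini-Hochberg adjustment over 18702 genes. A call needed an adjusted p below 0.1 and 1.5-fold, with 8 residual degrees of freedom. SE are on the log2 scale, means are over 3 mice ± SD. P-values measure the spread between mice, 1 library each. The edgeR model took 1 spread per gene over all 4 groups, though the groups differed in it. For Cd74 the SD was 193 CPM in flox vehicle, 185 in KO vehicle, 645 in flox MTX and 248 in KO MTX. Ratios were compared by exact two-sided permutation tests (scipy 1.17.1), which cannot go below 0.1. RMS differences used log2 CPM with a prior count of 2. Libraries of 1 group differed beyond sampling noise in all 12 pairs (chi-square per degree of freedom 14.1 or more). On simulated counts for KO vehicle against flox vehicle, 148 of 200 genes changed 4-fold were called, with 21 unchanged genes, of 18307 tested.

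The 10 genes and the marker and pathway lists were chosen with earlier results of these data known. Named are the 10 genes, all genes called of the near-copy and promoter factor lists, and genes of the interferon gamma list, though not every one called. Up to 3 called genes per direction of the other lists are named too, as are the 5 genes of smallest RMS difference to Cd74 and to the mean of the 10. Rfx5, Rfxap, Rfxank and the genes with 0 or few counts were named in addition, and some genes of the lists are not reported here. Other settings tried were RLE factors or no scaling beyond library size, DESeq2 1.42.0, other filters and limits, the replicate number as a block, fits of only 6 libraries and each library left out. Replicate numbers were not taken as pairs, since 12 same-numbered pairs had a median residual correlation of 0.035, with 3 over 0.1.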

Additional observations from a re-analysis of the deposited data

How the results depend on the processing

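The 7 class II genes called in KO vehicle against flox vehicle were 5 to 8 under the alternatives other than the block, and 0 class II genes were called in KO MTX against KO vehicle and in the interaction under every alternative that was run. The calls of MTX in flox mice were the least stable: 9 fell to 3 at a log2 limit of 1.5, to 5 at an adjusted p below 0.05, to 0 with the 6 libraries alone and to 0 with the libraries of most B cell markers (flox MTX replicate 2 and KO MTX replicate 3) left out. Leaving out each library in turn gave 0 to 10 class II genes in that comparison and 0 to 7 in KO MTX against flox MTX. In the latter, DESeq2 called 1, and 1 was called without the libraries of most B cell markers. With the replicate number as a block, which does not pair the mice, 4 class II genes were called in KO vehicle against flox vehicle and 0 for MTX in flox mice, and the latter count over all genes fell to 2771 and that of the interaction to 0.

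H2-Oa and H2-Ob changed sign most readily, none of these values being called. H2-Oa in KO vehicle against flox vehicle was -0.070 with the block, and -0.028 to 0.69 with a library left out (below 0 without KO vehicle replicate 2). In KO MTX against flox MTX it was 0.052 without the libraries of most B cell markers and -1.18 to 0.88 with a library left out, above 0 without flox MTX replicate 2 (0.88) and without KO MTX replicate 2 (0.045). H2-Ob ranged from -1.55 to 0.70 there. In the interaction the ranges were -1.57 to 0.49 for H2-Oa, -2.16 to 0.090 for H2-Ob and -0.96 to 0.14 for Ciita, above 0 without flox MTX replicate 2. The Ctss to Cd74 difference between KO MTX and KO vehicle was -0.30 to 0.051, above 0 without KO vehicle replicate 3. That of Ctss to macrophage markers between flox MTX and flox vehicle was -0.067 to 0.22, below 0 without flox MTX replicate 2. The cause of these changes was not tested. The ratios of H2-O to H2-DM and of Cd74 to macrophage markers kept their direction in every comparison and alternative run.

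Counts over all genes moved too. A log2 limit of 1.5 left 3026 genes in KO vehicle against flox vehicle and 2791 for MTX in flox mice. DESeq2 called 2740 genes in KO MTX against flox MTX, 276 in KO MTX against KO vehicle and 1225 in the interaction. Without a filter on low counts the 3 counts were 875, 20 and 472. A filter of 10 counts per library gave 1491 for KO MTX against flox MTX, 2198 for MTX in flox mice and 1 for the interaction. With 6 libraries alone they were 4 for KO MTX against flox MTX, 2167 for MTX in flox mice and 3 for KO MTX against KO vehicle. At an adjusted p below 0.05, 3326 genes were called for MTX in flox mice and 33 in the interaction. Without the libraries of most B cell markers, 1314 genes were called in KO MTX against flox MTX, 4708 for MTX in flox mice and 48 in the interaction. Leaving out single libraries gave 0 to 4064 genes in KO MTX against flox MTX (4064 without flox MTX replicate 2), 2219 to 5995 for MTX in flox mice (2219 without flox vehicle replicate 3), 0 to 215 in KO MTX against KO vehicle and 5 to 1371 in the interaction. Scaling by library size alone moved the median of all genes to -0.15 for MTX in flox mice, 0.12 for KO MTX against flox MTX and 0.13 for the interaction, and 6 class II genes were called for MTX in flox mice. No sign of a class II gene turned under library size scaling or RLE factors.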
